A study of Mus musculus with 3 samples.

Results

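Proliferating cells are rare in the adult hypothalamus, and 200 of 36467 kept cells were counted as such in 3 single-cell RNA libraries of this tissue from 8-week-old male mice. The cells were chosen by measured counts: a cell counted as proliferating when at least 1 UMI (unique molecular identifier, standing for 1 captured transcript) was found for at least 3 of 7 genes of dividing cells, Mki67, Top2a, Birc5, Cdk1, Pclaf, Ube2c and Nusap1. Kept cells had at least 500 UMIs and at most 20% mitochondrial UMIs, and the files held 37066 barcodes in all. The QS library came from mice in recovery after heat exposure and held 31 proliferating cells of 11517, the HS library came from heat-exposed mice and held 83 of 12305, and the PF library came from pair-fed mice, a control matched for food intake, and held 86 of 12645. The labels name no strain, heat protocol, length of recovery or number of mice per library, and RT mice were not analysed here. The tissue was digested with collagenase II and dispersed mechanically, and the submitters state that raw QS files were lost to corruption.

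With 1 library per group there is no replicate, so no test was made, and every difference describes these libraries. Intervals are exact 95% intervals that cover counting error only. QS/PF and HS/PF share the PF library, so whatever is particular to that library enters both. The libraries held 93295920 (QS), 103891747 (HS) and 100727912 (PF) UMIs. Proliferating cells had more UMIs than most kept cells, with medians of 13852 (QS), 12532 (HS) and 12015 (PF). All kept cells had medians of 6410, 6510 and 6366. A rule of detected genes is met more easily by cells with many UMIs, and its part in this difference was not tested. With exactly 2 of the genes, just short of the rule, medians were 12085 (QS), 13235 (HS) and 14950 (PF) UMIs. With exactly 3 they were 5865, 5524 and 6522, and with all of the genes 21130, 18351 and 18740. Between 37 and 51 barcodes occurred in both libraries of a pair, none in all 3 libraries, and no barcode of a proliferating cell in another library's proliferating cells. In each library 1 cell can weigh heavily: proliferating cells with over 40000 UMIs numbered 1 in QS, 6 in HS and 1 in PF and held 11.3%, 29.2% and 3.92% of the UMIs of all proliferating cells of their library. Counts of called genes in HS are therefore given with and without those cells.

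Dividing cells run through a fixed order of steps. In late G1 phase, cyclin D and E kinases release E2F transcription factors, which switch on genes for loading replicative helicases onto origins, for the replication fork and for nucleotide synthesis. The DREAM complex holds the genes of G2 phase and mitosis off in resting cells and G1, and after DNA has been copied in S phase the MuvB complex with B-MYB and FOXM1 switches them on, among them cyclin B, kinetochore proteins and spindle motors. Inhibitors such as p21, the product of Cdkn1a, hold the cyclin kinases back. In the adult brain the dividing cells are mostly oligodendrocyte precursors, microglia and other macrophages, endothelial cells, neural progenitors and blood-derived lymphocytes.

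The promoter windows below show letters known from the promoters of these waves of transcription, for a pair of rule genes of G2 phase and mitosis (Cdk1, the mitotic kinase, and Top2a, which untangles chromosomes) and a pair of helicase subunits of S phase (Mcm6 and Mcm5). Each is the 250 bases before the transcription start in RefSeq, build GRCm38.p6, written 5′ to 3′ on the gene's strand. Capitals mark exact matches on either strand to TTTGAA (the CHR core element), to CCAAT (the site of NF-Y) and to E2F-type letters (TTTGGCGC, TTTCGCGC, TTTCCCGC or TTTGCCGC). E2F-type matches on both strands overlap in Mcm6 and in Mcm5.
Cdk1, chr10:69352913-69353162, minus strand: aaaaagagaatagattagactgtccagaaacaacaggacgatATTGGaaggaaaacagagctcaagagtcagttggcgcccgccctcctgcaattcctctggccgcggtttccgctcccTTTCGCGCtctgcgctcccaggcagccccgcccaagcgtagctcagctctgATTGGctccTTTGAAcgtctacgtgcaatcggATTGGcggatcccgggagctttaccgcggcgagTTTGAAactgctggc
Top2a, chr11:99024190-99024439, minus strand: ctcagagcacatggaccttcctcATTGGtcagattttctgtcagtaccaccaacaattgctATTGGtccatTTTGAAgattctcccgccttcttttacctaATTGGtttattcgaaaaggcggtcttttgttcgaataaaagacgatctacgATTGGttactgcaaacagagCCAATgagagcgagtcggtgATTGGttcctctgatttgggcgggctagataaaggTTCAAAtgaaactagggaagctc
Mcm6, chr1:128359706-128359955, minus strand: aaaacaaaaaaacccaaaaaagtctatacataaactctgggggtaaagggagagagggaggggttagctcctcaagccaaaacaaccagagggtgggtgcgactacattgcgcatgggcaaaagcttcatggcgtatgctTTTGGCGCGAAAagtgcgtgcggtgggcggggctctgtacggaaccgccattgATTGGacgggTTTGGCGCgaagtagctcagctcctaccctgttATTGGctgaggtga
Mcm5, chr8:75109259-75109508, plus strand: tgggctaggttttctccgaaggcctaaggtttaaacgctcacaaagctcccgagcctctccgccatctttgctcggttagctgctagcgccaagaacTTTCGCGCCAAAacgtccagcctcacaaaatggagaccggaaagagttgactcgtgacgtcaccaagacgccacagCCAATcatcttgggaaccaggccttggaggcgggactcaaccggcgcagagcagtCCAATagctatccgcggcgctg

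The Cdk1 window held 2 TTTGAA and 3 CCAAT matches and 1 E2F-type match, and the Top2a window 2 TTTGAA and 6 CCAAT matches. The Mcm6 and Mcm5 windows held no TTTGAA, 2 CCAAT matches each, and 3 (Mcm6) and 2 (Mcm5) E2F-type matches. Of 66 mitosis and rule genes with a window in the table, of 76, TTTGAA was present in 34.9%, CCAAT in 65.2% and an E2F-type match in 6.06%. Of 31 DNA replication and nucleotide synthesis genes with a window, of 37, the shares were 16.1%, 64.5% and 25.8%. Over all 27025 genes of the table they were 18.3%, 37.5% and 2.16%. These matches describe letters in a window and not binding.

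The share of proliferating cells was lower in QS than in the other libraries and differed little between HS and PF. It was 0.269% (0.183 to 0.382) in QS, 0.675% (0.538 to 0.836) in HS and 0.680% (0.544 to 0.839) in PF. The QS share was 0.396 times that of PF (0.254 to 0.603) and 0.399 times that of HS (0.255 to 0.610), and the HS share was 0.992 times that of PF (0.725 to 1.36). Mantel-Haenszel ratios, which compare libraries within lineages and then combine them, were 0.402 for QS/PF, 0.398 for QS/HS and 1.07 for HS/PF. Cells with marker genes of several lineages or of none entered them as groups of their own. Cells with all 7 rule genes, the most secure ones, numbered 10 in QS, 27 in HS and 34 in PF, and their QS/PF ratio of shares was 0.323 (0.142 to 0.669). After each cell was thinned to 2000 UMIs and shallower cells were left out (1334 in QS, 1346 in HS and 1692 in PF), the shares were 0.147%, 0.347% and 0.429%. With at least 2 rule genes in place of 3, QS/PF was 0.688. With at least 3 of 21 DNA replication genes that were low in cells with no rule gene as the rule, it was 0.939. That rule also met 6.73% of mature oligodendrocytes, marked by Mog. With at least 5 of the 21 genes QS/PF was 0.746 (0.577 to 0.961). Shares of cells from dissociated tissue also depend on dissection and survival, and these cannot be told apart from the group.

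**Figure D1:**
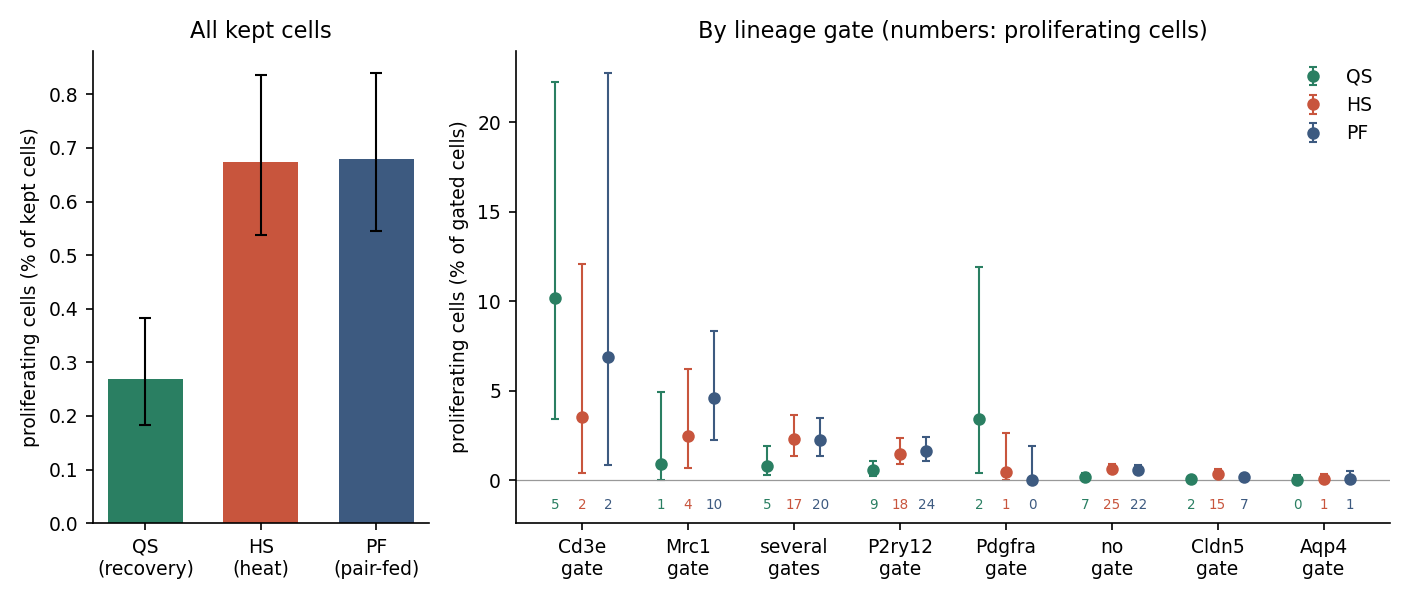
Share of proliferating cells in each library (left, percent of kept cells) and within cells of each lineage gate (right, percent of gated cells), with exact 95% intervals for counting error and the number of proliferating cells under each point. The QS share of 0.269% lies below 0.675% in HS and 0.680% in PF, and the lineage intervals are wide because most rest on fewer than 20 cells.

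Cells just below the threshold of 3 genes carried little more cell-cycle RNA than cells with no rule gene. Exactly 2 rule genes were found in 63 QS, 99 HS and 64 PF cells, just outside, and exactly 3 in 5 QS, 27 HS and 20 PF cells, just inside. Cells just outside had 691 CPM (UMIs per 1000000 UMIs of the cells summed) of the DNA replication and nucleotide genes and 1014 CPM of the mitosis genes, near the 511 and 886 CPM of the 33313 cells with no rule gene. Cells just inside had 1199 and 2086 CPM, and cells with all 7 genes 2996 and 10970 CPM. In 5 proliferating cells (1 QS, 3 HS, 1 PF, each with exactly 3 rule genes) the 2 groups of lists together lay below the 1397 CPM of cells with no rule gene, so for these cells the label rests on the rule genes alone. Among 2779 cells with at least 2 UMIs of Mog, a gene of mature oligodendrocytes, which do not divide, 1 met the rule (0.0360%), at a median of 7701 UMIs. Among 545 cells marked by Ccdc153, a gene of ciliated ependymal cells, 0 met it, which allows up to 0.675%.

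Each rule gene was found in most of the proliferating cells, and these levels describe the choice of cells. The proliferation antigen Mki67 (mm10 chromosome 7, 135689784 to 135716361) had 442 CPM in QS, 364 in HS and 376 in PF. Topoisomerase gene Top2a (chromosome 11, 98992943 to 99024189) had 425, 457 and 530 CPM in QS, HS and PF. Birc5, the survivin subunit of the chromosomal passenger complex (chromosome 11, 117849251 to 117855743), had 385, 244 and 272 CPM.

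Mitotic kinase gene Cdk1 (chromosome 10, 69335146 to 69352938) had 222 CPM in QS, 237 in HS and 260 in PF. Pclaf, the partner of the replication clamp PCNA (chromosome 9, 65890237 to 65903266), had 350, 205 and 348 CPM and was found in 80.7% of QS, 61.5% of HS and 81.4% of PF proliferating cells. Its HS level was the lowest of the 3 libraries (HS/PF 0.589, and 0.821 without cells of over 40000 UMIs), as were those of Mki67, Birc5 and Nusap1. Like theirs, it describes the choice of cells and is no separate evidence on DNA replication. Ube2c, which charges the anaphase-promoting complex (chromosome 2, 164769898 to 164778822), had 371, 461 and 374 CPM. Nusap1, which bundles spindle microtubules (chromosome 2, 119618298 to 119651244), had 239, 184 and 246 CPM.

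Proliferating cells came from several lineages, led by microglia. A cell was given a lineage when exactly 1 of 8 gate genes had at least 2 UMIs. The P2ry12 gate, for microglia, held 9 QS, 18 HS and 24 PF proliferating cells, or 0.558% (0.255 to 1.06), 1.49% (0.884 to 2.34) and 1.63% (1.047 to 2.42) of the gated cells. Its QS/PF ratio of shares was 0.343 (0.140 to 0.763), its QS/HS ratio 0.375 (0.148 to 0.879) and its HS/PF ratio 0.913 (0.467 to 1.76). The microglial QS share was thus below both others, while the HS/PF ratio lay between 0.668 and 1.28 over other gates, rules and depths, so no order is given for that pair.

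The Cldn5 gate, for endothelial cells, held 2 QS, 15 HS and 7 PF proliferating cells, of 3619, 4089 and 4342 gated cells. The QS/HS ratio of shares was 0.151 (0.0167 to 0.648), and the intervals of HS/PF (2.28, 0.873 to 6.60) and QS/PF (0.343, 0.0348 to 1.80) included 1. The HS/PF ratio depended on the gate: it was 4.29 (1.16 to 23.7) with the gates at 1 UMI, from 12 HS and 3 PF cells, 3.70 (1.16 to 15.4) at 3 UMIs, from 14 and 4 cells, and 1.29 after thinning to 2000 UMIs. Of these 24 cells 13 had exactly 3 rule genes, 3 had all 7, and 4 had over 40000 UMIs. Read from the whole marker lists used below, most of the HS cells were nearest to endothelial cells. The smaller part of the PF cells and neither QS cell were, so these ratios are those of the gate. The Mrc1 gate, for macrophages of the brain's borders, held 1 QS, 4 HS and 10 PF cells, and every interval of its ratios included 1. When cells with several gates were given to the gate gene with most UMIs, QS/PF was 0.230 (0.0261 to 0.948). That ratio came from 2 QS and 20 PF cells.

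T cells had the highest share in cycle when the libraries were pooled, from few cells. The Cd3e gate, for T cells, held 5 QS, 2 HS and 2 PF proliferating cells of 49, 57 and 29, and over the libraries the share was 6.67% (3.09 to 12.3). Over the libraries 3.06% of Mrc1-gated cells, 1.19% of P2ry12-gated cells, 0.655% of Pdgfra-gated cells (oligodendrocyte precursors and fibroblasts), or 3 of 458, 0.199% of Cldn5-gated cells and 0.0506% of Aqp4-gated cells (astrocytes) were proliferating. None of 897 Kcnj8-gated cells (pericytes) was, which allows up to 0.410%, nor any of 137 Cd79a-gated cells (B cells), which allows up to 2.66%. The Pdgfra gate held 2 QS, 1 HS and 0 PF proliferating cells of 58, 208 and 192 gated cells, so its QS share (3.45%) lay above those of the Mrc1 and P2ry12 gates in QS (0.901% and 0.558%), and the pooled order is not that of each library. The Aqp4 gate held 0 QS, 1 HS and 1 PF cells. Cells with no gate gene at 2 UMIs numbered 7, 25 and 22, at a median of 2824 UMIs, and cells with several gate genes 5, 17 and 20, at a median of 21320 UMIs.

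Doublets were counted rather than removed, because the proliferating cells as a group had more UMIs than most kept cells. Scrublet, a doublet caller, marked 4 QS, 2 HS and 5 PF proliferating cells. Of the 42 cells with several gates, 18 combined Cldn5 with P2ry12 alone, and 2 more Cldn5, P2ry12 and Mrc1. Among all kept P2ry12-positive cells of at least 10000 UMIs, proliferating ones included, 20.9% in QS, 29.2% in HS and 31.9% in PF also had at least 2 UMIs of Cldn5. When lineage was instead read from whole marker lists, 97 of the 200 cells were nearest to microglia (11 QS, 41 HS, 45 PF), 26 to border macrophages (2, 6, 18), 24 to endothelial cells (2, 14, 8) and 17 to T or NK cells (8, 6, 3). By those lists 50 of the 51 P2ry12-gated cells were microglia, 12 of 15 Mrc1-gated cells border macrophages, 8 of 9 Cd3e-gated cells T or NK cells, and 15 of 24 Cldn5-gated cells endothelial, with 5 nearest to microglia.

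The gates differed in how much cell-cycle RNA their proliferating cells carried. P2ry12-gated cells had 3597 CPM of the DNA replication and nucleotide genes (3455 to 3744) and 11850 CPM of the mitosis genes (11590 to 12110). Cd3e-gated cells were close to them, with 4046 and 10730 CPM. Mrc1-gated cells had 2749 and 5261 CPM and Cldn5-gated cells 1200 and 4939 CPM. The Cldn5-gated values differed between libraries, with 1882 CPM of both in the 2 QS cells, 985 and 4523 CPM in the 15 HS cells and 1671 and 6119 CPM in the 7 PF cells. In HS 1 cell held 786 of the 1318 mitosis UMIs and in PF 1 cell held 404 of 747, both cells of over 40000 UMIs. That PF cell had 2 UMIs of Cldn5 and was nearest to astrocytes by marker list. Pituitary and pars tuberalis markers summed to 2293 CPM in the Cldn5-gated cells, with up to 9 of 10 genes found in 1 cell. For cells up to 40000 UMIs the pooled Cldn5-gated values were 1315 and 3971 CPM.

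Genes of DNA replication were lower in HS proliferating cells than in QS or PF ones, while genes of mitosis differed little. The 28 genes of replication licensing and the fork and the 9 of nucleotide synthesis summed to 3466 CPM in QS (3291 to 3648), 1826 CPM in HS (1753 to 1902) and 3031 CPM in PF (2931 to 3133). HS/PF was 0.603 (0.572 to 0.635), QS/HS 1.90 (1.78 to 2.03) and QS/PF 1.14 (1.08 to 1.22). Without cells of over 40000 UMIs, HS/PF was 0.690, QS/HS 1.57 and QS/PF 1.08. In P2ry12-gated cells alone HS/PF was 0.685 (0.622 to 0.753), QS/HS 1.46 (1.30 to 1.64) and QS/PF 0.9999 (0.898 to 1.11). In all other cells the HS/PF ratio of the same lists was 0.968.

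The mitosis lists summed to 8196 CPM in QS, 7776 in HS and 8555 in PF, an HS/PF ratio of 0.909 (0.884 to 0.935). That ratio turned to 1.07 (1.04 to 1.10) without cells of over 40000 UMIs and to 1.13 (1.07 to 1.18) in P2ry12-gated cells, so no direction is given for it. QS/HS was 1.054, and 0.891 without those cells. QS/PF was 0.958 (0.922 to 0.996).

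Among the cells that met the rule, those with more replication RNA than mitosis RNA were scarce in HS. They numbered 9 of 31 in QS (29.0%, 14.2 to 48.0), 3 of 83 in HS (3.61%, 0.752 to 10.2) and 15 of 86 in PF (17.4%, 10.1 to 27.1). The median cell had 3824 CPM of the replication and nucleotide genes in QS, 1188 in HS and 2813 in PF, within ranges of 341 to 9398, 0 to 8958 and 0 to 8997, so the libraries overlapped widely. Among cells of at least 12000 UMIs, where sampling is finer, 5 of 17 QS, 2 of 42 HS and 7 of 43 PF cells had more replication than mitosis RNA. In the P2ry12 gate the counts were 2 of 9, 0 of 18 and 6 of 24. The scarcity holds for cells chosen by the rule. Among all kept cells, 106 QS, 147 HS and 156 PF cells had at least 5 of 21 DNA replication genes that were low in cells with no rule gene. Their HS/PF ratio of shares was 0.968 (0.768 to 1.22), QS/PF was 0.746 (0.577 to 0.961) and QS/HS 0.770 (0.594 to 0.996). Of these cells 84 in QS, 112 in HS and 100 in PF did not meet the rule, and whether they divide was not tested.

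**Figure D2:**
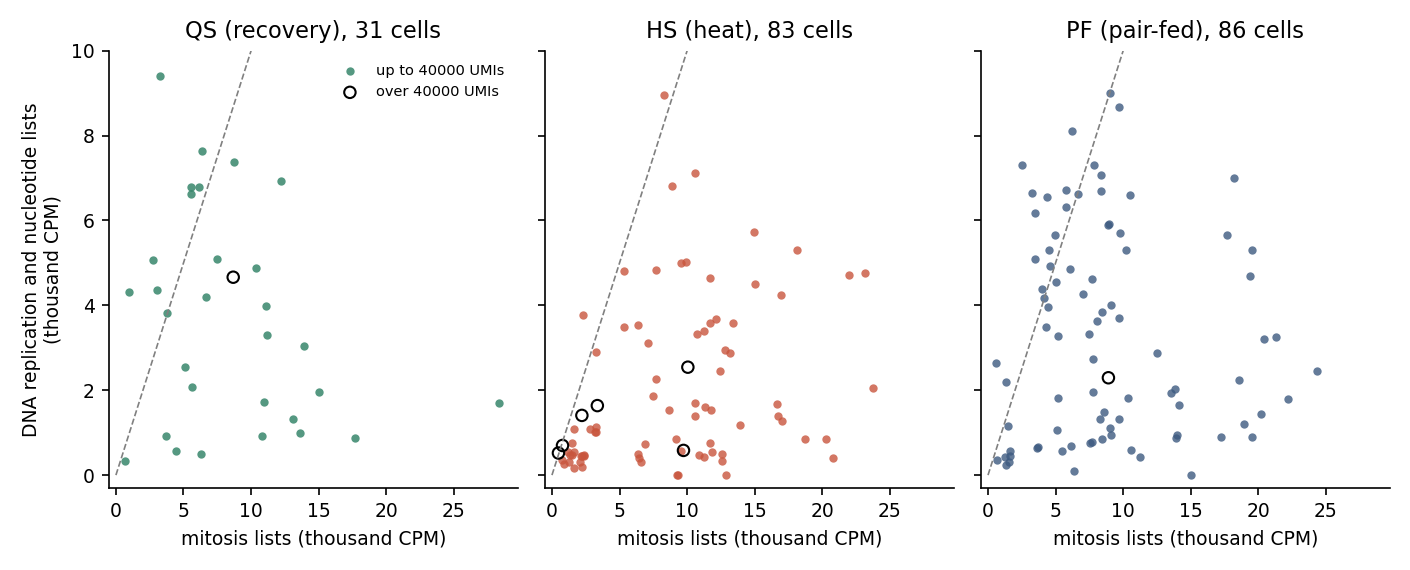
Each proliferating cell by its level of the mitosis lists (x axis) and of the DNA replication and nucleotide lists (y axis), both in units of 1000 CPM of the cell's own UMIs, for QS, HS and PF. Cells above the dashed line of equal levels number 9 of 31 in QS, 3 of 83 in HS and 15 of 86 in PF, and open circles are cells of over 40000 UMIs.

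In HS against PF, all 28 replication genes had a ratio below 1 and 18 were called lower. Called means a ratio of at least 1.5 either way, an interval that excludes 1, and at least 30 UMIs in the library with more. Over all 9443 genes measured in proliferating cells, 5.29% were called lower and 8.93% higher in HS, and the median log2 ratio was 0.01, against −0.84 for the list. Without cells of over 40000 UMIs 10 of 28 were called lower with a median of −0.57, where 5.37% of 8547 genes were called lower and 4.42% higher. In P2ry12-gated cells 5 of the 18 measured were called lower, where 4.90% of 3716 genes were called lower and 5.46% higher.

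Among the subunits of the MCM helicase, which unwinds DNA at the fork, Mcm6 had 139 CPM in QS, 38.2 in HS and 81.3 in PF (HS/PF 0.470, 0.326 to 0.670). Mcm5 had 104, 39.7 and 76.1 CPM (0.522) and Mcm3 172, 70.9 and 130 CPM (0.547), and Mcm2 (0.533) and Mcm7 (0.569) were also called lower in HS. Mcm4 was not called, with 56.7, 45.2 and 50.2 CPM. The origin recognition subunits Orc1 (HS/PF 0.451) and Orc6 (0.644), which mark where helicases load, were called lower in HS as well. With cells up to 40000 UMIs alone, Mcm6 (0.560), Mcm5 (0.647), Mcm3 (0.612) and Mcm7 (0.6615) kept the call, and Mcm2 (0.674), Orc1 (0.628) and Orc6 (0.763) lost it. Loading factors Cdc6 (0.901) and Cdt1 (0.691) were not called.

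At the fork, the sliding clamp Pcna had 281 CPM in QS, 146 in HS and 276 in PF, an HS/PF ratio of 0.528 (0.439 to 0.635). Lig1, which seals the lagging strand, had 94.5, 50.6 and 112 CPM (0.451, 0.329 to 0.611), and the flap nuclease Fen1 99.2, 48.3 and 89.1 CPM (0.542). Chaf1b, a subunit of the factor that lays histones behind the fork, had 23.6, 11.7 and 33.7 CPM, the lowest HS/PF ratio of the list (0.346, 0.178 to 0.643). These 4 genes were also called lower in HS without cells of over 40000 UMIs, with ratios of 0.545 (Pcna), 0.507 (Lig1), 0.582 (Fen1) and 0.418 (Chaf1b). Polymerase subunits Pola1 (0.8002) and Pole (0.526) were not called.

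Of 9 nucleotide synthesis genes 5 were called lower in HS against PF and 0 higher, where 5.29% of all genes were called lower. Their median log2 ratio was −0.67. Dut, which keeps uracil out of DNA, had 288 CPM in QS, 74.0 in HS and 158 in PF (HS/PF 0.468, 0.361 to 0.603). The thymidine enzymes Tk1 (89.7, 63.1 and 130 CPM, HS/PF 0.486) and Tyms (146, 60.0 and 119 CPM, HS/PF 0.503) followed. For cells up to 40000 UMIs 4 of the 9 were called lower (5.37% of all genes were), among them Dut (0.474), Tk1 (0.586) and Tyms (0.640). Rrm1 (0.712) and Rrm2 (0.694), the subunits of ribonucleotide reductase, were not called.

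Against HS, QS had 13 of 24 measured replication genes called higher and 0 lower, where 8.20% of 8264 genes were called higher and 13.4% lower. Mcm6 was 3.65 times (2.46 to 5.44), Dut 3.89 times (2.95 to 5.14) and Pcna 1.93 times (1.52 to 2.44) as high in QS. Against PF, QS had 3 of 28 replication genes called higher (Mcm6 1.71, Rpa2 1.84 and Orc6 1.56) and 1 lower (Mcm10, 0.455), where 7.75% of 7810 genes were called higher and 11.0% lower. These shares of the list lay near the background. Without cells of over 40000 UMIs 4 of 27 were called higher in QS against PF and 0 lower (6.67% and 9.03% of 7582 genes), and 11 of 24 higher in QS against HS and 0 lower (6.20% and 9.49% of 6957 genes).

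**Figure D3:**
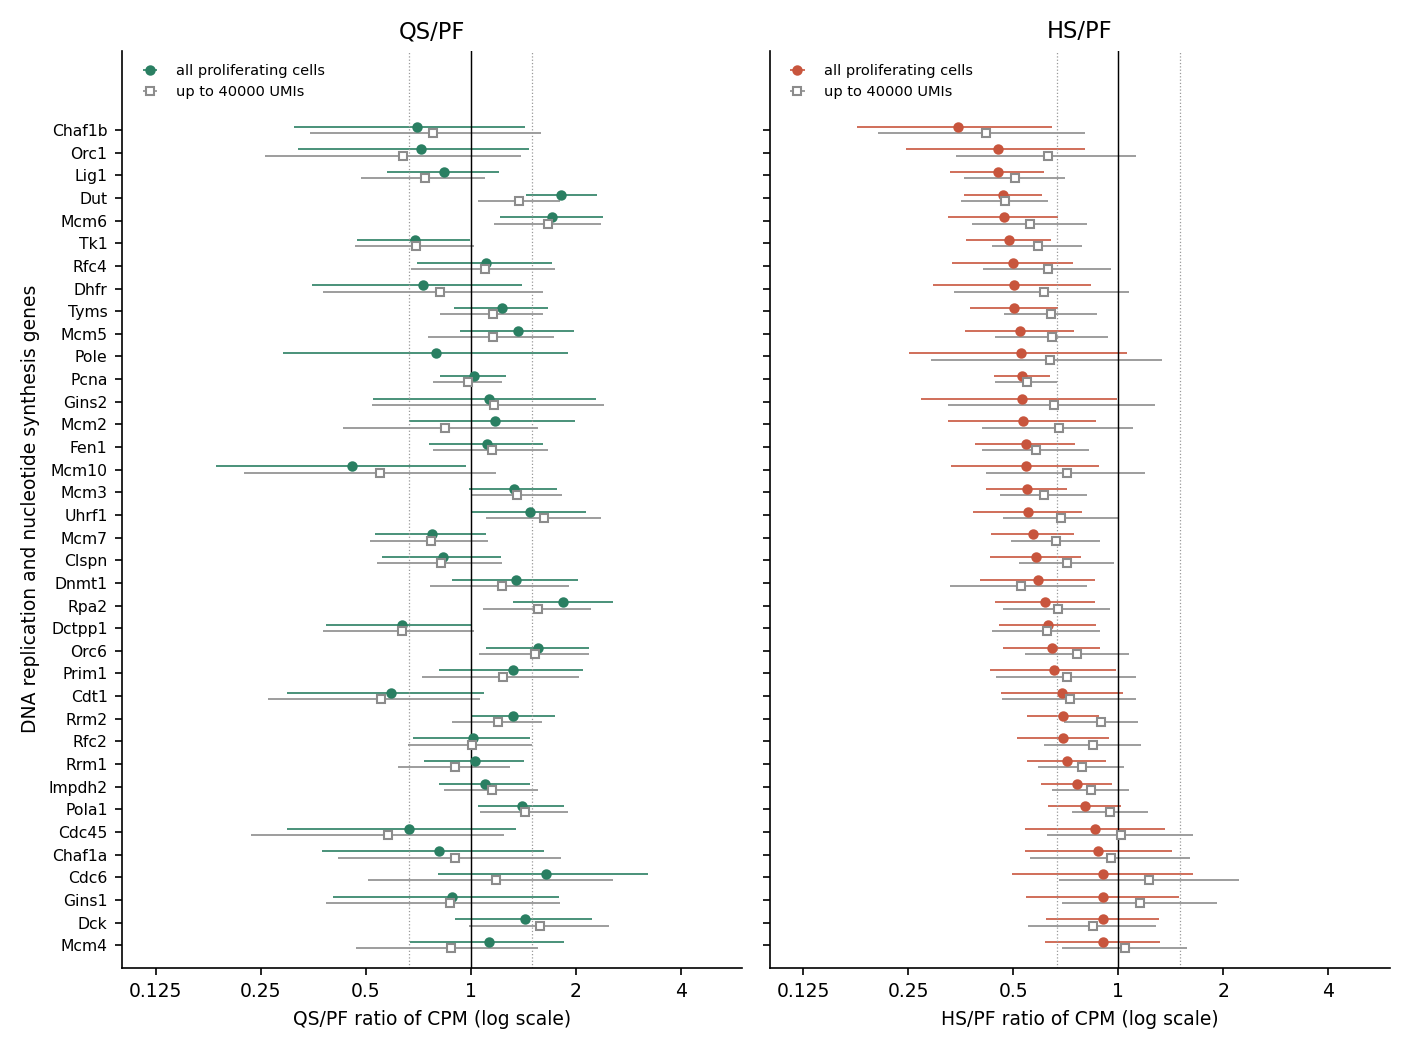
QS/PF (left) and HS/PF (right) ratios of CPM in proliferating cells for the genes of DNA replication and nucleotide synthesis, on log axes, with exact 95% intervals for counting error. Filled points are all proliferating cells, open squares those of up to 40000 UMIs, and dotted lines mark ratios of 1.5 either way. In HS/PF every filled point lies below 1, while QS/PF points lie on both sides.

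HS had the lowest level of the replication and nucleotide genes at each number of detected rule genes from 3 to 7. Cells with exactly 3 rule genes had 3021 CPM of the replication and nucleotide genes in QS, 660 in HS and 1895 in PF. Cells with exactly 5 had 4115, 2259 and 3907 CPM, and cells with all 7 had 3202, 2632 and 3238 CPM. QS and PF were close at 7 genes with all cells counted. However, 1 of the 10 QS cells there, of 47819 UMIs, held 223 of the 797 UMIs of these genes. Without that cell the QS level at 7 genes lay below the PF interval (3100 to 3381), so no likeness of QS and PF is given there. The HS level of 660 CPM at exactly 3 genes (575 to 752) lay beside the 666 CPM of HS cells with exactly 2, and HS held more such cells than QS or PF. At 7 genes the HS interval (2500 to 2770) and the PF interval (3100 to 3381) did not meet. The mitosis lists had no such order, with 1884 CPM in QS, 1826 in HS and 2631 in PF at 3 genes and 9184, 11740 and 10980 CPM at 7. The pattern rests on 5 to 34 cells per library at each number.

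**Figure D4:**
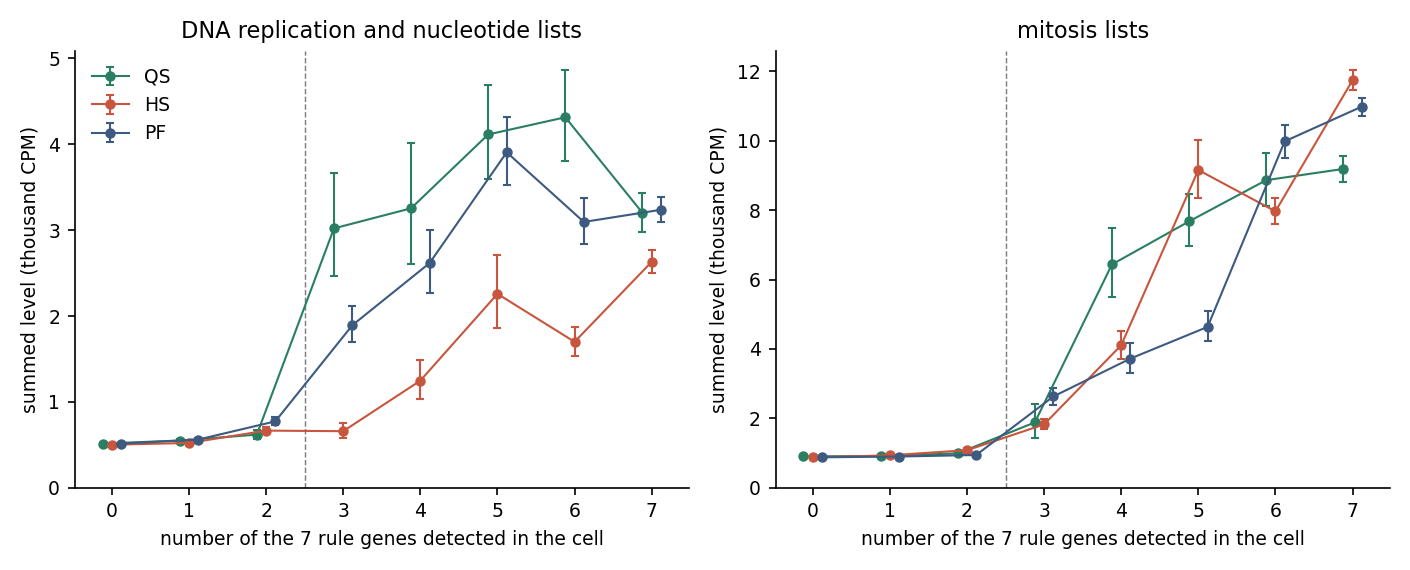
Summed level of the DNA replication and nucleotide lists (left) and of the mitosis lists (right), in units of 1000 CPM, by the number of rule genes detected in the cell, for QS, HS and PF, with exact Poisson 95% intervals. Cells right of the dashed line are proliferating by the rule, and the largest cells are included. HS lies lowest on the left at every number from 3 to 7, while on the right its place changes from number to number.

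Mitotic genes taken singly were mostly not called. Of 25 mitotic cyclins, kinases and checkpoint genes 2 were called lower in HS against PF and 0 higher, and without cells of over 40000 UMIs 0 lower and 1 higher (Mad2l1, 1.67). The shares of all genes were 5.29% lower and 8.93% higher, and without those cells 5.37% and 4.42%. Cyclin B1, the activator of Cdk1, had 144 CPM of Ccnb1 in QS, 162 in HS and 163 in PF. Aurka, a spindle pole kinase, had 168, 126 and 189 CPM (HS/PF 0.666, and 0.820 without those cells). Against PF, QS had Mad2l1 (2.002), Cdc25b (1.82) and Cks1b (1.55) called higher and Ccnf (0.616) lower, and of these Ccnf alone without cells of over 40000 UMIs (0.609). In that comparison 7.75% of all genes were called higher and 11.0% lower. Of 18 centromere and kinetochore genes 0 were called in HS against PF. The kinetochore gene Cenpf, expressed late in G2 phase, had 201, 372 and 292 CPM and was called lower in QS against HS (0.540, 0.424 to 0.682). In P2ry12-gated cells Cenpf was called higher in HS against PF (787 and 453 CPM, 1.74, 1.39 to 2.18).

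Of 26 kinesin, spindle and cytokinesis genes 2 were called lower in HS against PF (5.29% of all genes were), Ckap2l (0.596) and Dlgap5 (0.629), and neither without cells of over 40000 UMIs. Against PF, QS had 2 of 26 lower, a share below the 11.0% of all genes. Anln, the anillin of the cleavage furrow, had 35.4 CPM in QS, 62.3 in HS and 67.5 in PF (QS/PF 0.525, 0.281 to 0.920), and the spindle motor Kif15 75.6, 94.3 and 119 CPM (QS/PF 0.633, 0.417 to 0.936). Prc1, which bundles the central spindle, had 210, 309 and 292 CPM and was not called against PF.

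Upstream of replication, E2f1 and cyclin E1 were likewise lower in HS. E2f1, the activator E2F, had 59.0 CPM in QS, 24.9 in HS and 64.9 in PF (HS/PF 0.384, 0.246 to 0.589), and the atypical repressor E2f7 35.4, 16.4 and 35.5 CPM (0.462). Ccne1 had 77.9, 26.5 and 58.8 CPM (HS/PF 0.451, 0.289 to 0.690; QS/HS 2.94). Without cells of over 40000 UMIs E2f1 (0.440) and Ccne1 (0.522) were again called lower in HS, and E2f7 (0.627) was not. Of 13 measured E2F, MYB and FOXM1 regulators 2 were called lower in HS against PF, where 5.29% of all genes were. Foxm1 itself, with 30.7, 26.5 and 35.5 CPM, was not called.

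The D cyclins and their kinases gave a different picture. Cdk6, the G1 kinase abundant in blood-lineage cells, had 161 CPM in QS, 300 in HS and 287 in PF (QS/PF 0.559, 0.424 to 0.728; QS/HS 0.535), and the call remained without cells of over 40000 UMIs (QS/PF 0.521). Its QS/PF ratio in all other cells was 0.984. Ccnd2 was called higher in QS against PF (94.5 and 54.5 CPM, 1.73, 1.14 to 2.62). Ccnd3 had 135, 189 and 131 CPM, with an HS/PF ratio of 1.45 that was called only without cells of over 40000 UMIs (1.67). In P2ry12-gated cells Ccnd3 was 2.02 times as high in HS as in PF (1.30 to 3.15), next to 1.93 times in the other P2ry12-gated cells.

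CDK inhibitor Cdkn1a (p21) was abundant in proliferating cells, with 980 CPM in QS, 1457 in HS and 1332 in PF, and not called in HS against PF (1.09) or in QS against PF (0.736). Within the P2ry12 gate it had 2384, 3216 and 2095 CPM in proliferating cells and 394, 371 and 377 CPM in the other cells. The HS/PF ratio was 1.54 (1.38 to 1.71) in the proliferating cells and 0.983 in the other cells. Cdkn1b (p27) was called higher in HS against PF (40.5 and 23.4 CPM, 1.74), but not without cells of over 40000 UMIs (1.57). Cdkn1c (p57) had 9.45, 142 and 23.4 CPM, and its HS/PF ratio of 6.07 was 1.41 without those cells. Cdkn2d (p19), which inhibits CDK4 and CDK6, had 149 CPM in QS, 95.1 in HS and 83.9 in PF and was called higher in QS against PF (1.77, 1.27 to 2.46).

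Histones and chromosome proteins split by kind. Slbp, whose protein binds the stem-loop of replication-dependent histone RNA, had 460 CPM in QS, 270 in HS and 425 in PF (HS/PF 0.634, 0.551 to 0.729), and 0.731 without cells of over 40000 UMIs. Replication-dependent histone RNA mostly lacks the poly(A) tail that the assay primes on, and near-identical copies share reads, so these counts are uncertain. Of 11 genes of the histone list measured, Slbp included, 3 were called lower in HS against PF (5.29% of all genes were), Slbp, Hist2h2ac (0.411) and Hist1h1c (0.656), and 0 higher. With cells of over 40000 UMIs left out, 4 were called higher (Hist1h1b, Hist1h2ae, Hist1h2ap and Hist1h4d, 1.51 to 1.62) and 1 lower. Of all genes 4.42% were then called higher and 5.37% lower. Hist1h2bc was called higher in QS against PF (246 and 95.1 CPM, 2.58, 1.96 to 3.41).

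Of 20 chromosome structure and abundant dividing-cell genes 3 were called lower in HS against PF, where 5.29% of all genes were. These were the condensin subunits Ncapd2 (0.665) and Ncapg2 (0.647) and Ranbp1 (0.601), which serves nuclear transport. Ranbp1, with 378 CPM in QS, 168 in HS and 280 in PF, was called without cells of over 40000 UMIs too (0.5998), the condensins not. The abundant Hmgb2 had 2586, 1622 and 1868 CPM and the histone variant H2afz 1998, 1500 and 1713 CPM, with no call against PF. Of 14 DNA repair genes measured, Rad51ap1 (63.8, 35.1 and 68.3 CPM, HS/PF 0.513) and Atad2 (163, 113 and 173 CPM, HS/PF 0.653) were called lower in HS against PF, and 0 higher. The share of all genes called lower was 5.29%, and 5.37% for cells up to 40000 UMIs. For cells up to 40000 UMIs Rad51ap1 (0.604) was called, of 11 measured, and Atad2 (122 CPM in HS and 175 in PF) was not.

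Microglia were the only gated lineage with at least 30 proliferating cells, so they allow proliferating cells to be set against the others of their kind. These values describe the contrast that the rule itself made. Over 6436 genes measured, 17.0% were called higher and 8.93% lower in the 51 proliferating P2ry12-gated cells. The highest ratios were those of Hmmr, a spindle protein (262 CPM against 0.222 CPM), Depdc1a, Pimreg, Neil3, a glycosylase active in S phase, and Kif4, a chromosome motor. The lowest were Nkain2, Ptprd, Kdm7a, Tagln and Nr3c2, at 0.0252 to 0.147 times. P2ry12 itself had 600 CPM against 967 CPM (0.620), but it is the gate gene, so the gate of 2 UMIs sets its level in part. The proliferating cells of the gate had a median of 12998 UMIs, where all cells of the gate had 8082. Tmem119, another microglial gene, had 649 against 738 CPM (0.880). Of 23 measured immediate early genes 12 were called lower and 0 higher, among them Fos (2912 against 4588 CPM, 0.635). Of 20 heat shock genes 7 were called lower and 0 higher, among them Hspa1b (235 against 1086 CPM, 0.217) and Hspa1a (475 against 1678 CPM, 0.283). How far the doublets, depth and free RNA of these cells enter those ratios was not tested.

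Of 18 measured genes that respond to interferon 8 were called lower in HS proliferating cells than in PF ones and 0 higher, where 5.29% of all genes were called lower. The list's median log2 ratio was −0.54, and 4 genes had a ratio above 1. The count was 8 again without cells of over 40000 UMIs (5.37% of all genes). Border macrophage markers summed to 281 CPM in QS, 1014 in HS and 1810 in PF, and their part was not tested. The chemokine gene Cxcl10 had 904 CPM in QS, 482 in HS and 969 in PF (HS/PF 0.497, 0.4499 to 0.549). Isg15, a ubiquitin-like modifier, had 300, 178 and 381 CPM (0.468, 0.397 to 0.5501). Ifit1 had 154, 42.1 and 96.0 CPM (0.438, 0.311 to 0.612) and Ifit2 139, 52.2 and 151 CPM (0.345, 0.256 to 0.460), members of a family that binds foreign RNA. Rsad2, the antiviral viperin, had 77.9, 75.6 and 194 CPM (0.390), but 63.8% of its PF UMIs came from 1 cell.

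Other cells showed less of this, with 1 of the 18 called lower in HS against PF, where 1.43% of 20282 genes were, a median of −0.22, and an Ifit1 ratio of 0.979. The difference between proliferating and other cells was not tested. In P2ry12-gated proliferating cells 5 of 14 were called lower and 1 higher, where 4.90% and 5.46% of all genes were. There Cxcl10 was at 905 CPM in HS and 902 in PF (1.003). Against PF, QS proliferating cells had 1 called higher (Ifit1, 1.60) and 5 lower, among them Bst2 (135 and 312 CPM, 0.431) and Ifitm3 (385 and 810 CPM, 0.475). Of all genes 7.75% were called higher and 11.0% lower there.

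Of 22 measured heat shock genes 8 were called higher in HS against PF and 0 lower, where 8.93% of all genes were called higher. Only 2 of 21 were called without cells of over 40000 UMIs, where 4.42% of all genes were. These were Hsph1, an HSP110 chaperone, with 116 CPM in QS, 308 in HS and 77.0 in PF (HS/PF 3.999, and 2.87 without those cells), and Hspa1b, an inducible HSP70, with 545, 1611 and 516 CPM (3.12, and 1.68). The small chaperone Hspb1 had 272, 879 and 295 CPM (2.98, and 1.40), and Hspa1a, the near-identical neighbour of Hspa1b, 834, 2508 and 1294 CPM (1.94, and 1.25). Reads may be split uncertainly between Hspa1a and Hspa1b. In other cells the HS/PF ratios were 1.16 for Hsph1 and 1.04 for Hspa1b. Bag3, a chaperone partner, was called lower in QS against PF (35.4 and 74.4 CPM, 0.476).

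**Figure D5:**
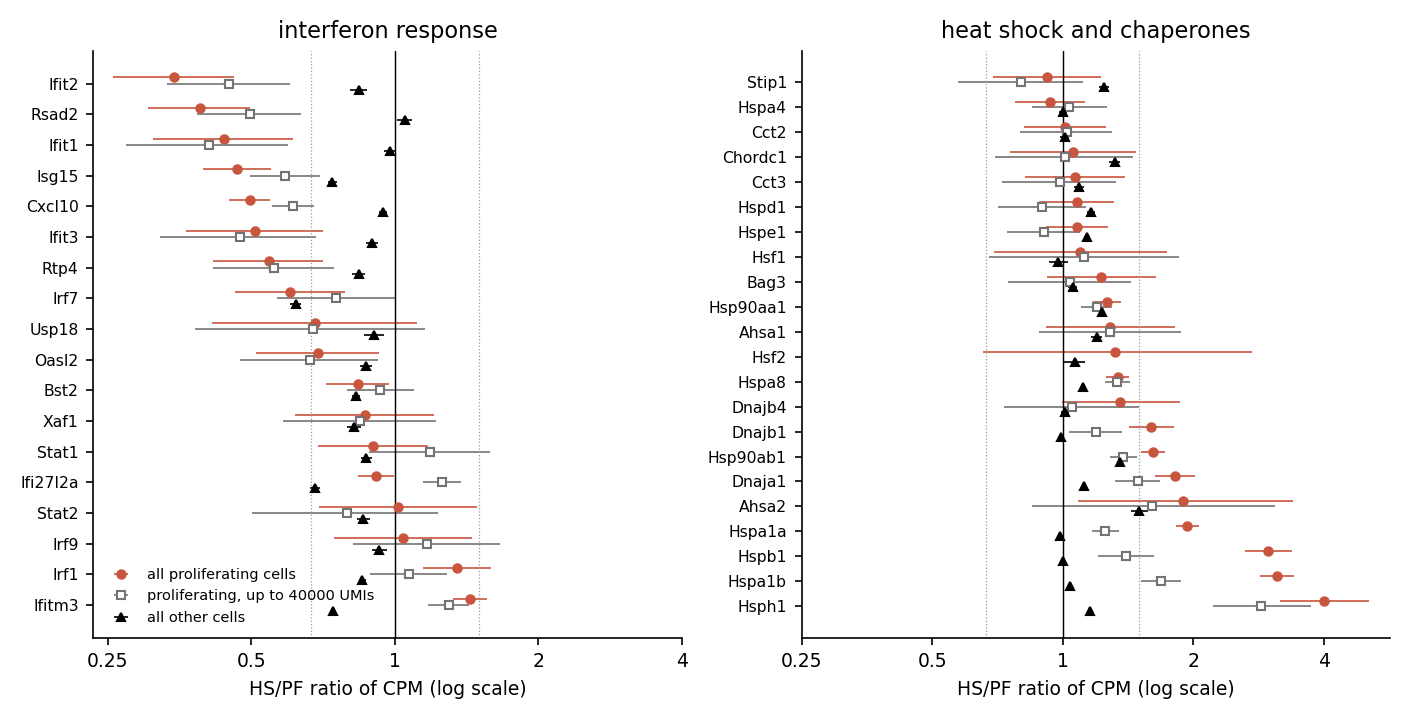
HS/PF ratios of CPM for interferon response genes (left) and heat shock genes (right), on log axes, with exact 95% intervals for counting error, in all proliferating cells, in those of up to 40000 UMIs and in all other cells. Ifit1 lies at 0.438 in proliferating cells and 0.979 in other cells, and Hspa1b moves to 1.68 from 3.12 when the largest cells are left out.

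Among glucocorticoid-responsive genes, the classic readout of stress hormone, Fkbp5 and Zbtb16 had HS/PF ratios in proliferating cells unlike those in other cells. The list's median log2 HS/PF ratio was 0.17 in proliferating cells and 0.22 in other cells. It was 0.054 in proliferating cells up to 40000 UMIs and −0.13 in P2ry12-gated ones, so no likeness is given for the list. Of 18 measured in proliferating cells 4 were called higher in HS against PF and 0 lower (Zbtb16 1.52, Per1 1.545, Mt2 2.03 and Lcn2 22.3, with 79.8% of its HS UMIs in 1 cell), and 1 (Lcn2, 3.28) without cells of over 40000 UMIs. Over all genes 8.93% were called higher, and 4.42% without those cells. Fkbp5, a co-chaperone of the receptor, had 54.3 CPM in QS, 82.6 in HS and 96.0 in PF proliferating cells (HS/PF 0.860, 0.653 to 1.13), while its HS/PF ratio in other cells was 2.31. Within the P2ry12 gate the ratio was 0.916 (0.549 to 1.51) in proliferating cells and 2.64 (2.40 to 2.90) in the other cells. Zbtb16, a zinc finger repressor, had 180, 59.2 and 38.9 CPM, with 67.1% of its QS UMIs in 1 cell, and its HS/PF ratio was 1.52 in proliferating cells, 1.11 without those of over 40000 UMIs, and 4.09 in other cells. Nr3c1, the receptor itself, was called higher in QS against PF (269 and 172 CPM, 1.56, 1.23 to 1.98). Markers of T and NK cells summed to 5601 CPM in QS, 1952 in HS and 1649 in PF proliferating cells, and their part in the QS levels of Nr3c1, Ccnd2 and Cdk6 was not tested.

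Immediate early genes, which respond to tissue dissociation as well as to signals, were called higher in HS against PF for 5 of 24, where 8.93% of all genes were. Without cells of over 40000 UMIs the count was 2 of 23 (Nr4a1 and Nr4a3), where 4.42% of all genes were. Nr4a1 had 250 CPM in QS, 463 in HS and 210 in PF (HS/PF 2.20, and 1.73 without those cells). In QS against HS 13 of 24 were called lower, where 13.4% of all genes were. Without those cells 2 of 23 were called lower, near the 9.49% of all genes. Jun had 2656, 4605 and 4107 CPM and was called lower in QS against PF (0.647), and so were Ier2 (0.571) and Ier3 (0.537), of which Jun (0.727) was not called without those cells. Of 14 antigen presentation genes measured 2 were called lower in HS against PF, Cd74, the invariant chain (1079, 947 and 1580 CPM, 0.5997), and H2-Aa, an MHC class II chain (279, 342 and 518 CPM, 0.660), and 0 without cells of over 40000 UMIs. The share of all genes called lower was 5.29%, and 5.37% without those cells. The part of the border macrophage markers, given with the interferon genes, was not tested here either.

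Several of the most extreme ratios between libraries rested on 1 cell. The highest HS/PF ratios were those of Chgb, Fam155a and Apoc3, with 55.7%, 57.9% and 72.8% of their HS UMIs in 1 cell. For cells up to 40000 UMIs the ratio was 0.816 for Chgb and 4.89 for Fam155a, and Apoc3 was at 0 in HS. Markers of the pituitary and pars tuberalis summed to 4.72 CPM in QS, 1895 in HS and 29.4 in PF proliferating cells. The lowest HS/PF ratios were those of Alcam (0.183), Tagln (0.261) and Plpp3 (0.274). In QS/PF the highest were Brinp3, Gpc5 and Pcdh15, with 58.4% to 81.5% of their QS UMIs in 1 cell. The lowest, with 13.9% to 22.3% of PF UMIs in 1 cell, were the macrophage genes Mrc1 (28.3 and 472 CPM, 0.0600) and F13a1 (26.0 and 236 CPM, 0.110) and the oxidase subunit Cybb (37.8 and 382 CPM, 0.0989). In QS/HS the highest were Lhfpl3, Pcdh15 and Lrrtm4, and the lowest Resp18, Il1b and Ackr1.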

How the data were processed

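The deposited files hold UMI counts per gene and cell barcode for 32285 gene rows, made with the 10x 3′ v3 assay per the labels' protocols. The file headers name Cell Ranger 7.0.1 and the mm10 genome, and the submitters' processing notes name Cell Ranger 5.0.0 and Seurat 3.1.2; the difference is not resolved in these sources. The counts were used as deposited, with no normalization by the authors. Which cell-calling settings the authors used was not stated.

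Barcodes with under 500 UMIs or over 20% mitochondrial UMIs were left out (203 in QS, 205 in HS, 191 in PF). Counts were summed over the cells of a class in each library and divided by that class's UMIs, with no correction for free RNA. Shares have Clopper-Pearson intervals, levels exact Poisson intervals, and ratios exact conditional binomial intervals, each at 95% and each for counting error only. A gene was measured with at least 30 UMIs in the libraries compared. With 1 library per group no p-value was computed. Doublets were scored with Scrublet in Scanpy 1.11.5 at an expected 0.8% per 1000 barcodes and kept, and calls made 6.23% (QS), 5.40% (HS) and 6.39% (PF) of kept cells. Python 3.11.15, SciPy 1.17.1 and pandas 2.3.3 were used, and the ratio calculation was tested on simulated data.

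The members, the 11 cell-cycle lists, the 6 response lists and the gates were chosen with earlier results of these data known. Genes were named as rule or gate genes, as list members with the largest ratios or best known roles, and, by rank, as the 5 highest and lowest against other cells of a lineage (at least 50 CPM) and the 3 highest and lowest between libraries (at least 100 CPM). Gene coordinates are those of GENCODE on mm10, and promoter windows those of RefSeq.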

Additional observations from a re-analysis of the deposited data

How the results depend on the processing

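Over 64 results, 338 alternative settings gave 269 values that moved less than counting error or, for counts, less than 1.5 times, 61 that moved and 8 called ones that reversed. Of the 269, 10 ratios and 5 medians lay on the other side of no difference. The settings without cells of over 40000 UMIs, with P2ry12-gated cells alone, with DNA replication genes as the rule and with whole marker lists as the lineage were chosen after seeing the data. The cause of each change was not tested. No paired analysis was possible because each group has 1 library, and for the same reason no replicate could be left out.

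The QS/PF ratio of shares was 0.688 with 2 rule genes. With 3 low-background DNA replication genes as the rule it was 0.939, QS/HS was 0.967 and HS/PF 0.971. That rule, however, met 5.64% of QS, 5.83% of HS and 6.002% of PF cells and 6.73% of Mog-positive oligodendrocytes. With at least 5 such genes, not among the settings counted above, QS/PF was 0.746 (0.577 to 0.961). Thinning set the Cldn5 ratios QS/PF and QS/HS to 0, and thinning, gates at 1 UMI and 4 rule genes each set the Mrc1 ratios QS/PF and QS/HS to 0. By marker list, microglia made 49.4% of HS and 52.3% of PF proliferating cells, and border macrophages 20.9% of PF ones. With gates at 1 UMI, Mrc1 held 0% of QS and 1.205% of HS proliferating cells and Cd3e 0% of PF ones.

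As the mean of the cells' own CPM, the replication and nucleotide lists were at 3701 (QS), 2001 (HS) and 3282 (PF) and the mitosis lists at 8491, 8835 and 8889, with mitosis ratios of 0.994 (HS/PF) and, reversed, 0.961 (QS/HS). Without Scrublet calls, the replication lists were at 3828 (QS) and 3220 (PF), with QS/HS at 2.03, and the mitosis lists at 8079 (HS) and 9294 (PF), with HS/PF at 0.869 and QS/PF at 0.9025. Leaving out cells of over 40000 UMIs, HS was at 2113 CPM for replication (HS/PF 0.690, QS/HS 1.57) and 9125 CPM for mitosis, where HS/PF (1.07) and QS/HS (0.891) reversed. In P2ry12-gated cells replication was at 4054 (QS), 2776 (HS) and 4055 (PF), with HS/PF 0.685, QS/HS 1.46 and QS/PF 0.9999, just under 1. Mitosis was there at 10880, 12860 and 11440 CPM, with HS/PF (1.125) and QS/HS (0.846) reversed.

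In P2ry12-gated cells the median log2 ratio of the glucocorticoid list in HS/PF reversed to −0.13, that of the interferon list in QS/HS moved to −0.68, and that of immediate early genes reversed to 0.0083 in QS/PF and moved to −0.24 in QS/HS. As the mean of the cells' own CPM the immediate early medians were −0.14 (QS/PF) and −0.25 (QS/HS), and without cells of over 40000 UMIs −0.27 and −0.36. Without those cells the HS/PF calls numbered 10 replication genes lower, and 2 heat shock, 2 immediate early and 1 glucocorticoid gene higher, and QS/HS had 2 immediate early genes lower. In P2ry12-gated cells these counts were 5, 2, 2, 1 and 3, with 2 nucleotide and 5 interferon genes lower in HS/PF. The number of cells limits the lineages: no lineage gate held 30 proliferating cells in either library of a comparison. By marker list microglia alone did, with 41 in HS and 45 in PF.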

Other observations

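Further genes were compared within the P2ry12 gate, as a description of the contrast that the rule made. Of 11 measured CDK inhibitor and pocket protein genes 6 were called higher in the proliferating cells, where 17.0% of all genes were. Cdkn1a, among them, had 2548 CPM in proliferating cells and 382 CPM in the other cells, and its ratio was 6.06 in QS, 8.68 in HS and 5.56 in PF. Apoe, a lipid carrier, was called lower (ratio 0.415), and the chemokine receptor gene Cx3cr1 had a ratio of 0.771. Free RNA was not removed from either class.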
